A study of Homo sapiens with 25 samples.

Results

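The enzymes of ceramide and sphingolipid metabolism followed here in HEC-1A cells given THC were SPTLC1, SPTLC2, SPTLC3, CERS2, CERS6, DEGS1, UGCG, SGMS1, SPHK1 and ASAH1. These 10 genes were taken by symbol from a table of 60179 genes. HEC-1A is an epithelial line from an endometrial adenocarcinoma, labelled wild type, and THC is tetrahydrocannabinol, the main psychoactive compound of cannabis. RNA-seq had 3 libraries of cells given 20 µM THC for 24 h, 3 of cells given 20 µM THC for 72 h and 3 of untreated cells. ATAC-seq, which finds open DNA by the insertion of a transposase, had the same 3 groups of 3 libraries. CUT&RUN, in which an antibody directs a nuclease to a chromatin protein, mapped trimethylated lysine 4 of histone H3 (H3K4me3, a mark of active promoters) in 3 libraries of cells given 20 µM THC, for a time that the labels do not state, and in 3 of untreated cells. The untreated libraries carry no time and no vehicle is named, so the effect of THC and that of time in culture or of a solvent cannot be told apart. The cells are of 1 line. The labels speak of biological replicates without saying whether these were separate cultures, so p-values measure the spread between these libraries, which may be technical.

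Ceramide is made in the endoplasmic reticulum. Serine palmitoyltransferase joins serine to a fatty acyl-CoA, the product is reduced and then acylated by a ceramide synthase, and a desaturase turns dihydroceramide into ceramide. Ceramide is then built into glucosylceramide or sphingomyelin, or cut to sphingosine, which a kinase can turn into sphingosine 1-phosphate, a signalling lipid.

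All 7 of the epithelial markers EPCAM, KRT7, KRT8, KRT18, KRT19, CDH1 and MUC1 averaged at least 1 TPM in each group. Of 5 endometrial epithelial markers, 1 did so at 24 h and at 72 h of THC and 2 did so in untreated cells. Stromal, immune and endothelial markers each summed to at most 1.84 TPM in any library. TPM, a gene's share of all transcripts, is corrected for gene length and fixed to the same total in each library, so it holds no sequencing depth, which is unknown here. The median library level on the log2(TPM + 1) scale moved by -0.22 between THC at 24 h and untreated cells, by 0.09 between THC at 72 h and untreated cells and by 0.30 between THC at 72 h and THC at 24 h. The changes below are of TPM as deposited, and values after centring each library on its median are given, here or among the additional observations, where they end a call or turn a direction. Centring moved the share of calls that were higher over all genes to 49.1% from 32.6% at 24 h, and to 44.5% from 75.5% between the 2 THC times. In bulk RNA, fewer cells that express a gene and less RNA per cell cannot be told apart.

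Of the 10 members, 7 have entries in the RefSeq promoter table for GRCh38.p14, 10 entries in all, because DEGS1 and SPHK1 have several starts. The 4 below are shown because they belong to members whose RNA changed at 24 h, SPTLC2 (chr14:77616588-77616887, minus strand), DEGS1 (chr1:224182990-224183289, plus strand, the upstream of 2 starts), UGCG (chr9:111896564-111896863, plus strand) and SGMS1 (chr10:50623907-50624206, minus strand). The SGMS1 entry lies inside that gene, which runs to 50625184, so its outer end was not searched, and the peak windows below are centred on the entry. Each sequence is 300 bases long, and capitals mark matches to the searched motifs.
SPTLC2: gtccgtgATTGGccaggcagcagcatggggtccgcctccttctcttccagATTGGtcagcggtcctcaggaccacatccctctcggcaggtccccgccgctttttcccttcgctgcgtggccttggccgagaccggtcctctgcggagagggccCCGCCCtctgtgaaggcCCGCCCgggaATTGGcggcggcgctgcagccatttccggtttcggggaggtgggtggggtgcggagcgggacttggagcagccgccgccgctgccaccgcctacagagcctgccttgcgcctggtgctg
DEGS1: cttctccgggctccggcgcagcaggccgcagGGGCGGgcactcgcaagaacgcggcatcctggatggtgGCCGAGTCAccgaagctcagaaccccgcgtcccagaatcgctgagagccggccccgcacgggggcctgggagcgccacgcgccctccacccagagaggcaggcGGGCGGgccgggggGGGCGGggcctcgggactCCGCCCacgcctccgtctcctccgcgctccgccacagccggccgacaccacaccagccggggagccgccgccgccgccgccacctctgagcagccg
UGCG: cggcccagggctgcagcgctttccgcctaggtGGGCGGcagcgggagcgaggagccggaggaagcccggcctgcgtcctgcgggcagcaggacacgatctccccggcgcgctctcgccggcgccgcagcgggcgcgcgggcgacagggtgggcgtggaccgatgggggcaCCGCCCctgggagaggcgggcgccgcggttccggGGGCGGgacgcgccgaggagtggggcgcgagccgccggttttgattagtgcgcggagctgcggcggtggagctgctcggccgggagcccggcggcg
SGMS1: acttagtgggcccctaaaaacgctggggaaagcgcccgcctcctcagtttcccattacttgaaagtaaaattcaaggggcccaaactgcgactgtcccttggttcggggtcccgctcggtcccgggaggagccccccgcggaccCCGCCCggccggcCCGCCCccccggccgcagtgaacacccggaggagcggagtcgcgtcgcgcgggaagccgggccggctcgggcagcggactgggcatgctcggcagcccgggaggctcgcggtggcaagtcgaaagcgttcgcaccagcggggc
The motif GGGCGG, the GC box, was searched on both strands and matched in 8 of the 10 member entries, at least 1 for each of the 7 members, against 45.0% of 35116 RefSeq promoters of the same length. UGCG held 3 such matches, SGMS1 and SPTLC2 held 2 each, and DEGS1 held 4 at its upstream start. CCAAT, the NF-Y box, matched in SPTLC2 and CERS6 only among the members with an entry, and in 34.6% of all promoters. TGACNNNGC, the NRF2 motif, matched at the upstream DEGS1 start, where the capitals GCCGAGTCA lie at -181 to -173 from the start, and in 2 SPHK1 entries, against 13.3% of all promoters. In 1 SPHK1 entry that match overlaps a match to TGANTCA, the AP-1 motif, which was in 2 SPHK1 entries and in 7.71% of all promoters. TGATGNAA (the composite of ATF4 and C/EBP, 3.62% of all promoters), TGACGTCA (the CRE, 1.85%), TCACGTGA (the E-box of TFEB and TFE3, 0.98%) and TCACNCCAC (SREBP, 1.13%) had no match in the 10 entries. These are matches of letters and do not show that a factor is bound.

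The first comparison asked which of these enzymes differed after 24 h of THC. Glucosylceramide synthase UGCG, ceramide synthase CERS2 and the serine palmitoyltransferase subunit SPTLC2 rose. The desaturase DEGS1, the alternative subunit SPTLC3 and sphingomyelin synthase SGMS1 fell. Of the 9 members that averaged at least 1 TPM over all libraries and were tested, 3 were higher and 3 lower by limma at an adjusted p under 0.05, where 25.0% of all 13753 tested genes were higher and 51.7% lower. The members' median log2 change was 0.01, against -0.23 over all tested genes. Calls were common in the whole table, so these counts are not read as particular to the enzymes.

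After 72 h of THC, UGCG, CERS2 and SPTLC2 were again higher and DEGS1 lower than in untreated cells, and smaller rises of SPTLC1 and CERS6 passed the test. That gave 5 of 9 tested members higher and 1 lower, where 40.1% of all tested genes were higher and 33.0% lower. The count was not steady. With a library left out 3 to 4 members were higher and 1 lower, and centring gave 3 higher and 2 lower. The members' median log2 change was 0.18, against 0.06 over all tested genes. The comparisons at 24 h and 72 h share the untreated libraries, so their like directions are not independent.

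**Figure D1:**
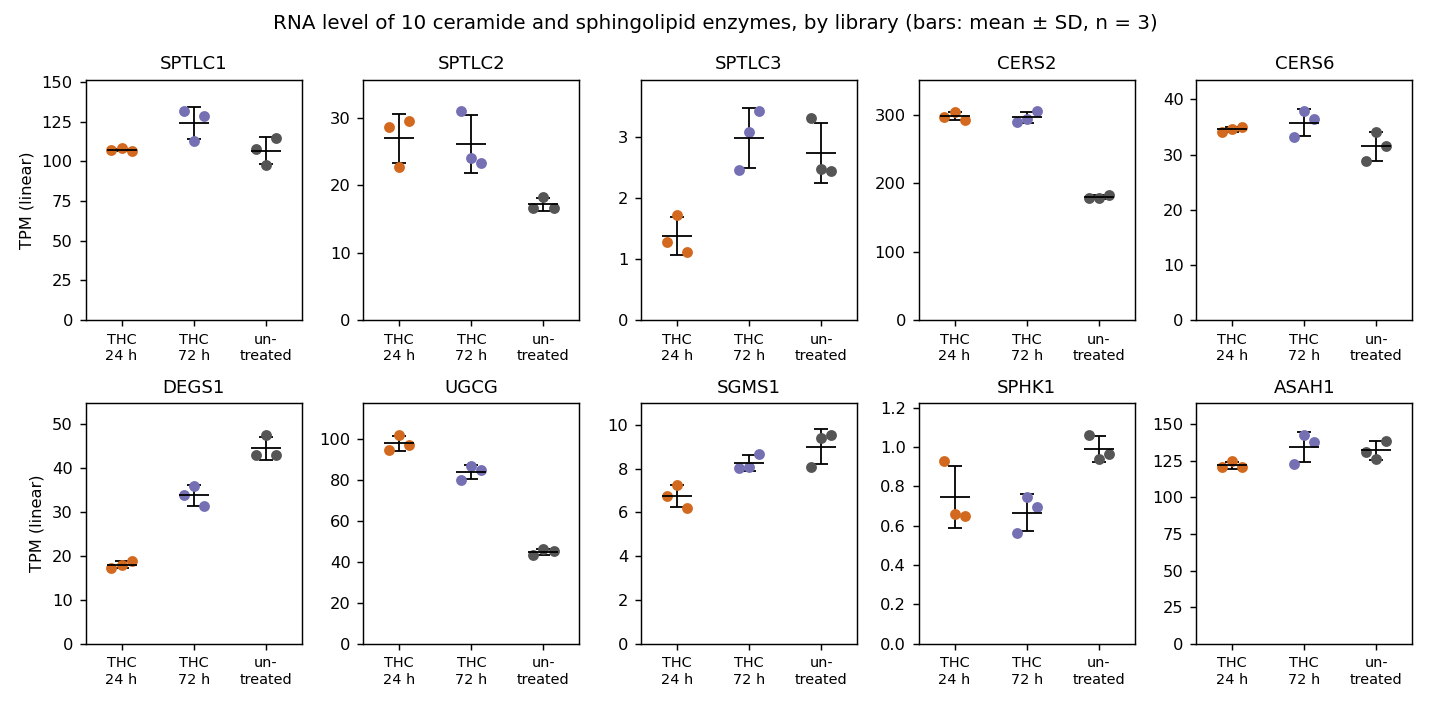
RNA level in TPM (linear axes that start at 0) of each member in each of 9 libraries, with the mean and SD of 3 libraries as bars, for THC at 24 h, THC at 72 h and untreated cells. UGCG lies at 94.6 to 102 TPM at 24 h and at 43.2 to 46.1 TPM in untreated cells, while DEGS1 lies at 17.2 to 18.8 TPM and at 42.9 to 47.5 TPM in the same groups.

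The first step of the pathway is run by serine palmitoyltransferase, a dimer of SPTLC1 with SPTLC2 or SPTLC3, in which the second subunit shapes the choice of acyl-CoA. SPTLC2 (chr14:77505997-77616637) had 28.6, 22.8 and 29.6 TPM at 24 h, 31.0, 24.0 and 23.3 TPM at 72 h, and 16.7, 18.3 and 16.6 TPM in untreated cells. All 6 THC libraries lay above all 3 untreated libraries. Its log2 change was 0.61 at 24 h (SE 0.12, limma adjusted p = 0.000854) and 0.57 at 72 h (limma adjusted p = 0.00159).

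SPTLC3 (chr20:13008972-13169103), which allows shorter and more varied sphingoid bases, had 1.28, 1.72 and 1.12 TPM at 24 h, 2.46, 3.09 and 3.43 TPM at 72 h, and 3.32, 2.47 and 2.44 TPM in untreated cells. The 24 h libraries were the lowest of the 9 and did not overlap the rest, while the 72 h and untreated libraries overlapped. The log2 change was -0.66 at 24 h (SE 0.14, limma adjusted p = 0.00140) and 0.09 at 72 h (limma adjusted p = 0.558). At such low levels log2(TPM + 1) understates a change, and the mean TPM at 24 h was 0.501 times that of untreated cells.

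SPTLC1 (chr9:92031147-92115413), the subunit shared by both forms, had 107, 108 and 107 TPM at 24 h, 132, 113 and 128 TPM at 72 h, and 108, 98.0 and 115 TPM in untreated cells. Its level at 24 h lay inside the untreated range (log2 change 0.01, 95% interval -0.14 to 0.16, limma adjusted p = 0.899), although centring gave 0.23 with an adjusted p of 0.0231. At 72 h it rose by 0.22 (limma adjusted p = 0.0154), but 1 library at 72 h lay under the highest untreated library. That call was lost with centring (adjusted p = 0.157), after rescaling without mitochondrially encoded genes (0.127), and without untreated replicate 2 (0.0628), 72 h replicate 1 (0.0580) or 72 h replicate 3 (0.0526).

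Ceramide synthases attach the second acyl chain, each with its own choice of chain length. CERS2 (chr1:150965186-150974835), which makes ceramides with very long chains, had 297, 305 and 293 TPM at 24 h, 290.2, 294 and 306 TPM at 72 h, and 179, 178 and 183 TPM in untreated cells. Every THC library exceeded every untreated library by more than 100 TPM. The log2 change was 0.73 at 24 h (SE 0.04, limma adjusted p = 4.62e-08) and 0.72 at 72 h (limma adjusted p = 5.42e-08), that is 1.66 and 1.65 times the untreated TPM.

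CERS6 (chr2:168456272-168775134), which makes ceramides with shorter chains, mainly C16, had 34.0, 34.7 and 34.9 TPM at 24 h, 33.1, 37.9 and 36.4 TPM at 72 h, and 28.9, 34.1 and 31.5 TPM in untreated cells. The groups overlapped at both times. The log2 change was 0.13 at 24 h (95% interval -0.02 to 0.28, limma adjusted p = 0.100) and 0.18 at 72 h (limma adjusted p = 0.0353). The call at 72 h was lost under 8 alternatives, among them centring (adjusted p = 0.197) and leaving out untreated replicate 1 (0.141), untreated replicate 3 (0.0714), 72 h replicate 2 (0.124) or 72 h replicate 3 (0.0886). At 24 h, centring made CERS6 a call, with a log2 change of 0.35 (adjusted p = 0.000507), and so did leaving out untreated replicate 2 (0.0300).

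DEGS1 (chr1:224183240-224193441), the desaturase that puts the double bond of ceramide in place, had the largest fall of the members. It had 17.2, 17.9 and 18.8 TPM at 24 h, 33.9, 36.0 and 31.4 TPM at 72 h, and 42.9, 47.5 and 43.0 TPM in untreated cells. The 3 groups did not overlap one another. Its mean TPM was 0.405 times the untreated mean at 24 h (log2 change -1.26, SE 0.07, limma adjusted p = 5.61e-08) and 0.758 times at 72 h (log2 change -0.39, limma adjusted p = 0.000333). After centring the changes were -1.04 and -0.48.

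UGCG (chr9:111896814-111935369), which adds glucose to ceramide and so opens the path to most glycosphingolipids, had the largest rise. It had 94.6, 102 and 96.8 TPM at 24 h, 80.0, 86.9 and 84.7 TPM at 72 h, and 43.2, 46.1 and 45.0 TPM in untreated cells. No THC library came near the untreated range. The mean was 2.18 times the untreated mean at 24 h (log2 change 1.11, SE 0.05, limma adjusted p = 1.84e-08) and 1.87 times at 72 h (log2 change 0.89, limma adjusted p = 9.03e-08).

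SGMS1 (chr10:50305600-50625184), the Golgi enzyme that moves phosphocholine to ceramide to make sphingomyelin, had 6.76, 7.23 and 6.21 TPM at 24 h, 8.01, 8.09 and 8.68 TPM at 72 h, and 8.07, 9.39 and 9.54 TPM in untreated cells. The 24 h libraries lay below all others, and the 72 h libraries overlapped the untreated ones. It fell by 0.37 on the log2 scale at 24 h (limma adjusted p = 0.00175), a call that centring ended (-0.15, adjusted p = 0.0967). At 72 h the change was -0.11 (95% interval -0.29 to 0.07, limma adjusted p = 0.245), and centring gave -0.20 with an adjusted p of 0.0404.

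The last pair of members acts on the breakdown side. ASAH1, the acid ceramidase of the lysosome, had 121, 125 and 120.4 TPM at 24 h, 123, 143 and 138 TPM at 72 h, and 131, 126 and 139 TPM in untreated cells. At 24 h all libraries lay below the untreated ones, while at 72 h they overlapped them. For comparison, the groups of 78.6% of all tested genes did not overlap at 24 h, 76.6% at 72 h and 73.9% between the 2 THC times. The log2 change was -0.11 at 24 h (95% interval -0.25 to 0.02, limma adjusted p = 0.107) and 0.02 at 72 h (95% interval -0.11 to 0.16, limma adjusted p = 0.727). The direction at 24 h turned with centring (0.10), whereas rescaling without mitochondrially encoded genes gave -0.17 with an adjusted p of 0.0227.

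SPHK1 (chr17:76383204-76387855), a kinase that makes sphingosine 1-phosphate, was the least expressed member. It had 0.928, 0.660 and 0.647 TPM at 24 h, 0.561, 0.747 and 0.693 TPM at 72 h, and 1.06, 0.941 and 0.965 TPM in untreated cells. The THC libraries lay below the untreated ones at both times, with the highest 24 h library close to the lowest untreated one. It averaged 0.801 TPM over the 9 libraries, under the minimum for testing. In the fit without that minimum the log2 change was -0.19 at 24 h (limma adjusted p = 0.127) and -0.26 at 72 h (limma adjusted p = 0.0490). As for SPTLC3, log2(TPM + 1) understates a change at such low levels.

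**Figure D2:**
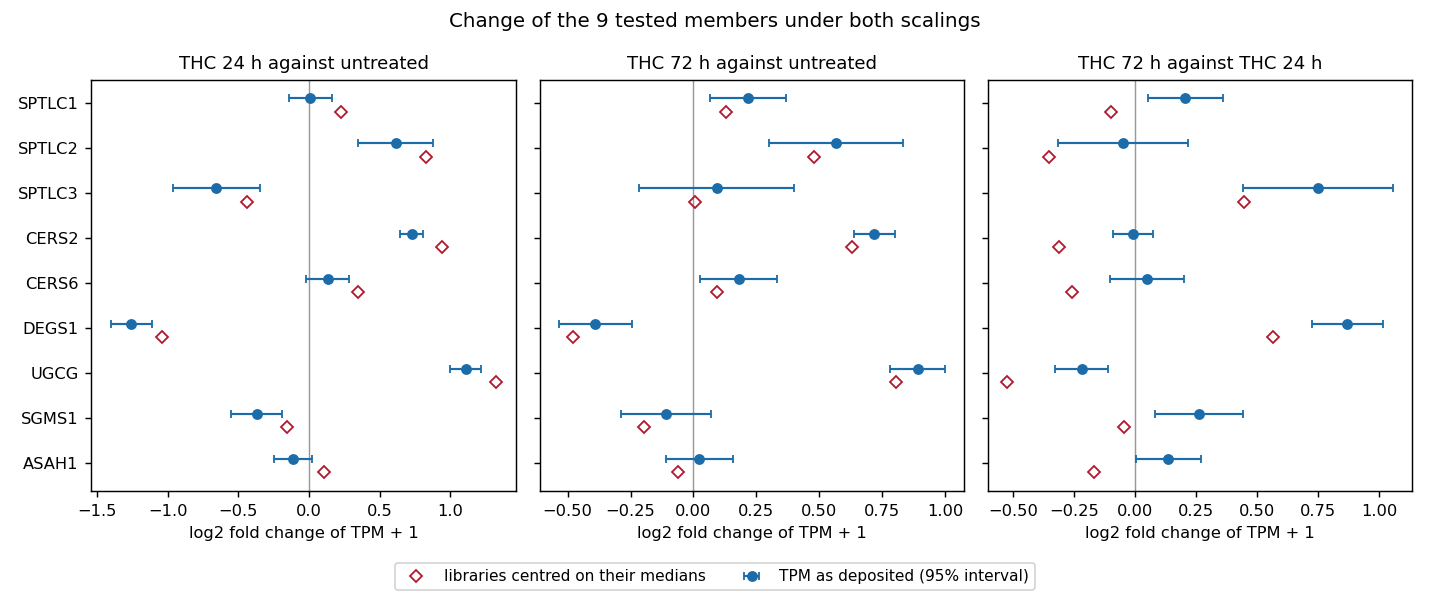
Log2 fold change of TPM + 1 (x axis) of the 9 tested members in 3 comparisons, as filled circles with 95% intervals for TPM as deposited and as open diamonds after centring each library on its median. Centring moves all members to the right at 24 h and to the left in the other panels, and SPTLC1, SGMS1, ASAH1 and CERS6 cross 0 in the comparison of 72 h with 24 h.

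The comparison of THC at 72 h with THC at 24 h asked which enzymes differed between the times. Of the 9 tested members 4 were higher and 1 was lower at 72 h, where 54.9% of all tested genes were higher and 17.8% lower. DEGS1 had 31.4 to 36.0 TPM in the 3 libraries at 72 h and 17.2 to 18.8 TPM in the 3 at 24 h, with SDs of 2.29 and 0.812 TPM and a log2 difference of 0.87 (limma adjusted p = 1.42e-06). SPTLC3 had 2.99 ± 0.494 TPM at 72 h and 1.37 ± 0.314 TPM at 24 h (SD, n = 3 libraries each; log2 difference 0.75, limma adjusted p = 0.000669). UGCG was lower at 72 h, with 83.9 ± 3.50 TPM against 97.8 ± 3.78 TPM at 24 h (log2 difference -0.22, limma adjusted p = 0.00223). These 3 calls kept their direction and passed the test in each alternative in which the gene was tested. SPTLC1 (0.21, limma adjusted p = 0.0195) and SGMS1 (0.26, limma adjusted p = 0.0137) were also higher, but centring turned them to -0.10 and -0.04. Both also lost the call without 24 h replicate 3 (adjusted p of 0.0518 and 0.0565) or 72 h replicate 3 (0.0638 and 0.0504), and SPTLC1 did so without 72 h replicate 1 (0.0717). CERS2 (-0.01, 95% interval -0.09 to 0.07), SPTLC2 (-0.05, -0.31 to 0.22), CERS6 (0.05, -0.10 to 0.20) and ASAH1 (0.14, 0.00 to 0.27) were not called. After centring, CERS2 (-0.31), SPTLC2 (-0.35), CERS6 (-0.26) and ASAH1 (-0.17) were called as lower, and ASAH1 was called as higher without 72 h replicate 1 (adjusted p = 0.00572).

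A ratio of 2 members within a library does not depend on the total to which TPM is fixed, apart from the pseudocount of 1. Ratios of 5 pairs were compared over 3 comparisons, 15 exact two-sided permutation tests in all, in which 3 against 3 libraries cannot give a p below 0.10. No share over other pairs of genes was taken. The groups of 78.6% of single tested genes did not overlap at 24 h, 76.6% at 72 h and 73.9% between the THC times. A ratio without overlap is therefore not read as particular to its pair. UGCG over SGMS1, the enzymes that lead to glucosylceramide and to sphingomyelin, had a mean log2 ratio of 3.68 ± 0.0736 at 24 h, 3.20 ± 0.0676 at 72 h and 2.20 ± 0.0809 in untreated cells (SD, n = 3 libraries each). The 3 groups did not overlap, and the differences from untreated cells were 1.48 at 24 h and 1.00 at 72 h (exact permutation p = 0.10 each, adjusted p = 0.136). SGMS1 made up 14.5% of the summed TPM of SGMS1 and SGMS2 at 24 h, 21.1% at 72 h and 25.7% in untreated cells. This ratio therefore leaves out SGMS2, the more abundant sphingomyelin synthase, and does not stand for the whole branch. DEGS1 over SPTLC1, a late over an early step of synthesis, had -2.51 ± 0.0669 at 24 h, -1.85 ± 0.198 at 72 h and -1.24 ± 0.192 in untreated cells, again without overlap (exact permutation p = 0.10, adjusted p = 0.136). CERS6 over CERS2 was lower by 0.59 at 24 h and by 0.54 at 72 h than in untreated cells, without overlap (exact permutation p = 0.10, adjusted p = 0.136). SPTLC3 over SPTLC2 was lower by 1.27 at 24 h without overlap (exact permutation p = 0.10, adjusted p = 0.136) and by 0.47 at 72 h with overlap (exact permutation p = 0.20, adjusted p = 0.231). SPHK1 over ASAH1 differed by -0.08 at 24 h with overlap (exact permutation p = 0.50, adjusted p = 0.536) and by -0.28 at 72 h without overlap (exact permutation p = 0.10, adjusted p = 0.136). SPHK1 averaged 0.745 TPM at 24 h, 0.667 TPM at 72 h and 0.990 TPM in untreated cells. These levels are under the pseudocount of 1, so the differences of this ratio are understated.

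**Figure D3:**
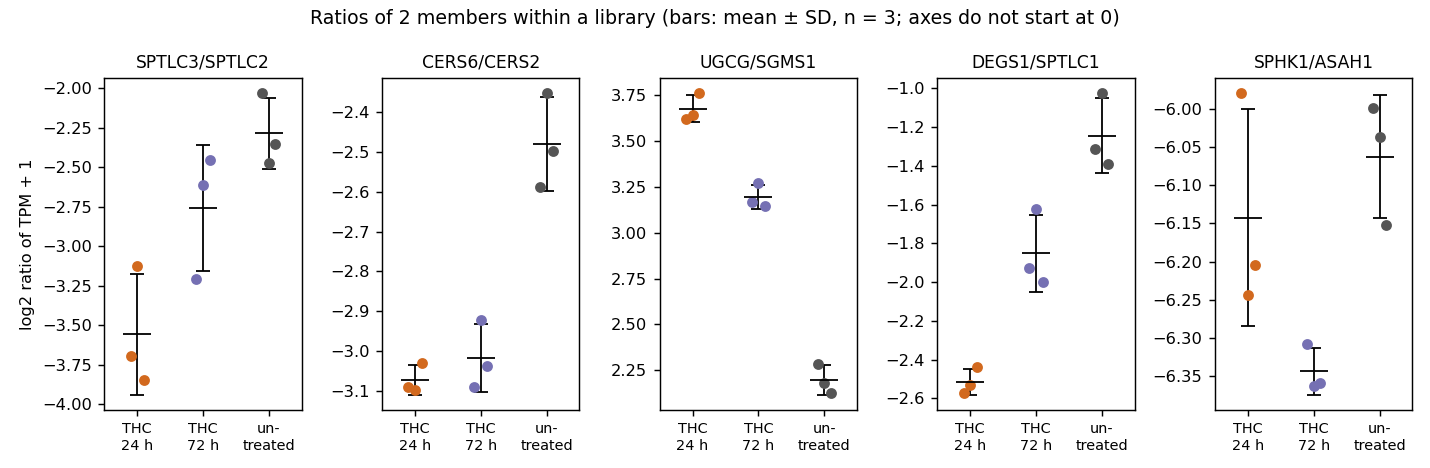
Log2 ratio of TPM + 1 between pairs of members within each library (y axes that do not start at 0), with the mean and SD of 3 libraries, for THC at 24 h, THC at 72 h and untreated cells. UGCG over SGMS1 averages 3.68, 3.20 and 2.20 in these groups and DEGS1 over SPTLC1 averages -2.51, -1.85 and -1.24.

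In linear TPM, SPTLC2 made up 95.0 ± 1.81% of the sum of SPTLC2 and SPTLC3 at 24 h, 89.5 ± 2.85% at 72 h and 86.2 ± 2.48% in untreated cells (SD, n = 3 libraries each). The 6 ceramide synthase genes summed to 387 ± 7.01 TPM at 24 h, 387 ± 12.2 TPM at 72 h and 243 ± 5.71 TPM in untreated cells. CERS2 made up 77.0 ± 0.664%, 76.7 ± 0.322% and 73.9 ± 0.762% of that sum in the same groups. CERS6 made up 8.92 ± 0.170% at 24 h, 9.25 ± 0.576% at 72 h and 12.9 ± 1.10% in untreated cells. Thus the share of CERS6 was lower at both times while its own TPM was not. UGCG made up 67.8 ± 0.768% of the sum of UGCG, SGMS1 and SGMS2 at 24 h, 68.2 ± 0.655% at 72 h and 56.2 ± 1.05% in untreated cells. SGMS1 made up 14.5 ± 0.641% of the sum of both sphingomyelin synthases at 24 h, 21.1 ± 0.413% at 72 h and 25.7 ± 1.50% in untreated cells. These are shares of RNA and not of enzyme or lipid.

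Ranked by mean TPM, CERS2, ASAH1, SPTLC1 and UGCG were the 4 highest members in each group, and SGMS1, SPTLC3 and SPHK1 the 3 lowest. DEGS1 stood at place 7 at 24 h, 6 at 72 h and 5 in untreated cells. At 24 h no neighbours in the order overlapped. At 72 h ASAH1 overlapped SPTLC1 and CERS6 overlapped DEGS1. At 24 h UGCG stood at 97.8 ± 3.78 TPM (SD, n = 3 libraries) and DEGS1 at 17.2 to 18.8 TPM, whereas in untreated cells they overlapped, with 44.8 ± 1.44 TPM for UGCG and 44.5 ± 2.66 TPM for DEGS1 (SD, n = 3 libraries each).

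A wider list of 72 sphingolipid genes sets the members in their pathway. Of the 62 that are not members, 46 were tested, and at 24 h 16 rose, 21 fell and 9 were not called, with a median log2 change of -0.08. At 72 h 19 rose, 14 fell and 13 were not called, with a median of 0.12. Over all tested genes 25.0% were higher and 51.7% lower at 24 h, and 40.1% and 33.0% at 72 h. Centring turned the balance of these 46 at 24 h, to 23 higher and 15 lower, and gave 19 higher and 17 lower at 72 h.

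Among the regulators of serine palmitoyltransferase, SPTSSA, a small activating subunit, fell to 8.28 ± 0.470 TPM at 24 h, against 19.5 ± 0.397 TPM in untreated cells (log2 change -1.15, limma adjusted p = 4.26e-06). ORMDL1 and ORMDL3, which hold the enzyme back when ceramide is plentiful, rose at 72 h by 0.99 and 0.50 (limma adjusted p = 1.39e-07 and 3.33e-06). ORMDL2 fell at 24 h by 0.29 (limma adjusted p = 0.00244), a call that centring ended (adjusted p = 0.372). KDSR, the reductase of the next step, rose to 75.9 ± 0.354 TPM at 24 h, against 38.6 ± 2.17 TPM in untreated cells, by 0.96 at 24 h and 1.06 at 72 h (limma adjusted p = 8.91e-08 and 5.01e-08).

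Of 4 tested ceramide synthases, members included, 2 rose and 0 fell at 24 h, where 25.0% of all tested genes were higher and 51.7% lower, and 4 rose at 72 h, where 40.1% were higher. So few genes are not read against those shares. CERS5, which also makes C16 ceramide, rose by 1.02 at 24 h and 0.52 at 72 h (limma adjusted p = 4.89e-06 and 0.000705). The row of CERS1 rose by 1.06 at 72 h (limma adjusted p = 1.03e-06), and is uncertain because CERS1 shares its transcript with GDF1. FA2H, which adds a hydroxyl group to the fatty acid before it enters ceramide, rose by 1.25 at 24 h and 0.67 at 72 h (limma adjusted p = 2.44e-06 and 0.000259).

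**Figure D4:**
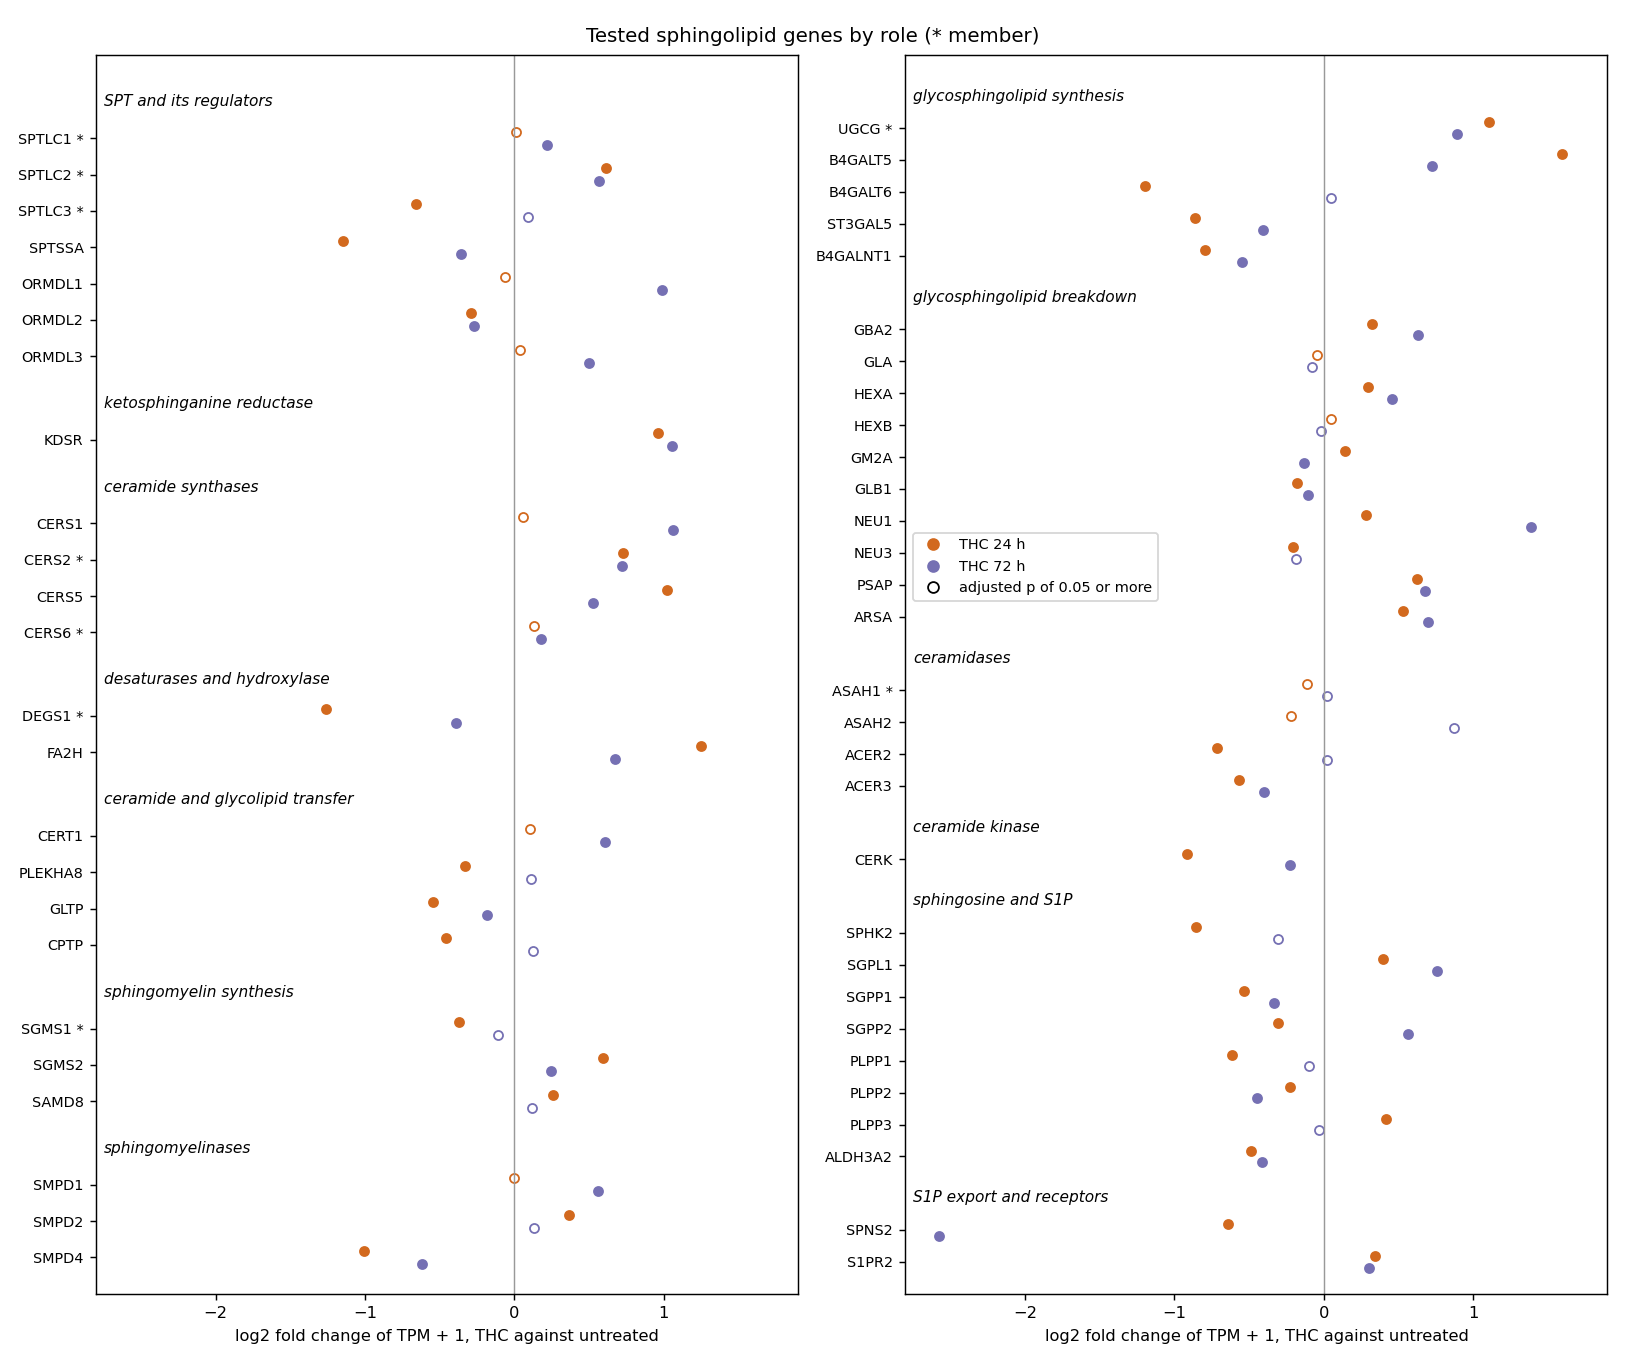
Log2 fold change of TPM + 1 (x axis) for tested genes of the wider list, grouped by role, for THC at 24 h and THC at 72 h against untreated cells, with open circles for an adjusted p of 0.05 or more and asterisks on the members. The point farthest right is B4GALT5 at 24 h (1.60) and the point farthest left is SPNS2 at 72 h (-2.58).

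Ceramide is carried from the endoplasmic reticulum to the Golgi by CERT1, which rose by 0.61 at 72 h (limma adjusted p = 0.000187). The transfer proteins GLTP, for glycolipids, and CPTP, for ceramide 1-phosphate, fell at 24 h by 0.54 and 0.46 (limma adjusted p = 1.09e-06 and 0.00116), and GLTP fell by 0.18 at 72 h (limma adjusted p = 0.00301). SGMS2, the sphingomyelin synthase at the cell surface, moved opposite to SGMS1 at 24 h in TPM as deposited. Centring ended the call of SGMS1 (-0.15, limma adjusted p = 0.0967). SGMS2 rose to 39.7 ± 0.996 TPM at 24 h, against 26.0 ± 2.02 TPM in untreated cells (log2 change 0.60, limma adjusted p = 6.60e-06), and by 0.25 at 72 h (limma adjusted p = 0.00364). The related SAMD8 rose by 0.26 at 24 h (limma adjusted p = 0.00555).

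Of the sphingomyelinases, which return sphingomyelin to ceramide, SMPD4 fell by 1.01 at 24 h and 0.62 at 72 h (limma adjusted p = 5.72e-08 and 2.12e-06). Near-identical copies of SMPD4 exist, so its level is uncertain. SMPD2 rose by 0.36 at 24 h (limma adjusted p = 0.00739), and SMPD1, the acid form in lysosomes, rose by 0.56 at 72 h (limma adjusted p = 8.77e-05).

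After UGCG, lactosylceramide is made by B4GALT5 or B4GALT6, and these moved in opposite directions at 24 h. B4GALT5 rose to 125 ± 3.40 TPM at 24 h, against 40.7 ± 0.503 TPM in untreated cells (log2 change 1.60, limma adjusted p = 7.39e-10), and by 0.72 at 72 h (limma adjusted p = 1.44e-07). B4GALT6 fell to 1.10 ± 0.495 TPM at 24 h, against 3.78 ± 0.988 TPM in untreated cells (log2 change -1.20, limma adjusted p = 0.000147). B4GALNT1, which extends gangliosides, fell by 0.55 at 72 h (limma adjusted p = 6.19e-05). Of 11 tested genes for breakdown of glycosphingolipids, 6 rose and 2 fell at 24 h, and 6 rose and 2 fell at 72 h, where 25.0% of all tested genes were higher and 51.7% lower at 24 h and 40.1% and 33.0% at 72 h. Centring gave 8 higher and 0 lower at 24 h, and 6 higher and 4 lower at 72 h. PSAP, the precursor of the saposins, rose by 0.63 at 24 h, ARSA, a sulfatase, by 0.53 at 24 h and 0.70 at 72 h, and NEU1, a sialidase, by 1.39 at 72 h (limma adjusted p = 9.17e-08, 0.00121, 0.000200 and 2.46e-09). GALC, the galactosylceramidase, is listed at 0 in all 9 libraries.

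On the path out of ceramide, 2 of 4 tested ceramidases fell and 0 rose at 24 h, where 51.7% of all tested genes were lower and 25.0% higher. ACER2 and ACER3, alkaline ceramidases, fell by 0.72 and 0.57 at 24 h (limma adjusted p = 5.27e-05 and 1.66e-05), and ACER3 by 0.40 at 72 h (limma adjusted p = 0.000265). CERK, the ceramide kinase, fell to 11.1 ± 0.532 TPM at 24 h, against 21.8 ± 1.19 TPM in untreated cells (log2 change -0.91, limma adjusted p = 2.39e-07), and by 0.22 at 72 h (limma adjusted p = 0.00558). SPHK2, the kinase that was the more abundant of the pair, fell to 7.30 ± 1.61 TPM at 24 h, against 13.9 ± 1.55 TPM in untreated cells (log2 change -0.86, limma adjusted p = 0.000179). PLPP1, a lipid phosphatase, fell by 0.61 at 24 h (limma adjusted p = 7.95e-05).

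At 72 h, SGPL1, the lyase that ends the pathway, and SGPP2, a phosphatase of sphingosine 1-phosphate, rose by 0.76 and 0.57 (limma adjusted p = 1.75e-06 and 6.02e-06). SPNS2, which exports sphingosine 1-phosphate from cells, fell at both times, with a mean of 19.9 TPM at 24 h, 4.42 TPM at 72 h and 31.3 TPM in untreated cells. Its log2 changes were -0.64 at 24 h and -2.58 at 72 h (limma adjusted p = 4.47e-05 and 2.26e-09). The receptor S1PR2 rose by 0.35 at 24 h and 0.30 at 72 h (limma adjusted p = 0.00339 and 0.00776).

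Peak lists were used to ask whether chromatin at the starts of the members differed with THC. A start counted as listed where a peak reached within 1000 bases of it. A gene with several starts, such as DEGS1 or SPHK1, counted as listed where a peak reached any of them. The starts of SPTLC3, CERS2 and ASAH1 were themselves placed under H3K4me3, so counts of listed members are given for the 7 whose start came from the promoter table. H3K4me3 peaks were listed at all 7 in all 3 THC and all 3 untreated libraries, where 45.9% of 27195 gene starts were listed in all 6. The starts behind this share and the ATAC shares below were not limited to genes with RNA here. The members are therefore not read as marked or open more often than other expressed genes. None of the 7 gained or lost the mark, and 0.0919% of all starts gained it and 0.0331% lost it. For SPTLC1, CERS6, DEGS1, UGCG and SGMS1 the marked bases filled the whole window in all 3 THC and all 3 untreated libraries, so coverage could not differ there. The windows of ASAH1 and CERS2 were full as well, except for CERS2 in 1 untreated library, but they had been placed by the mark itself. H3K4me3 coverage overlapped between THC and untreated cells at SPTLC2 and SPHK1, and at SPTLC3, whose window was also placed by the mark. Over all starts it was higher with THC without overlap at 2.88% and lower at 0.754%. A full window hides any change in the width or height of a peak, so these values do not show that the mark was unchanged.

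**Figure D5:**
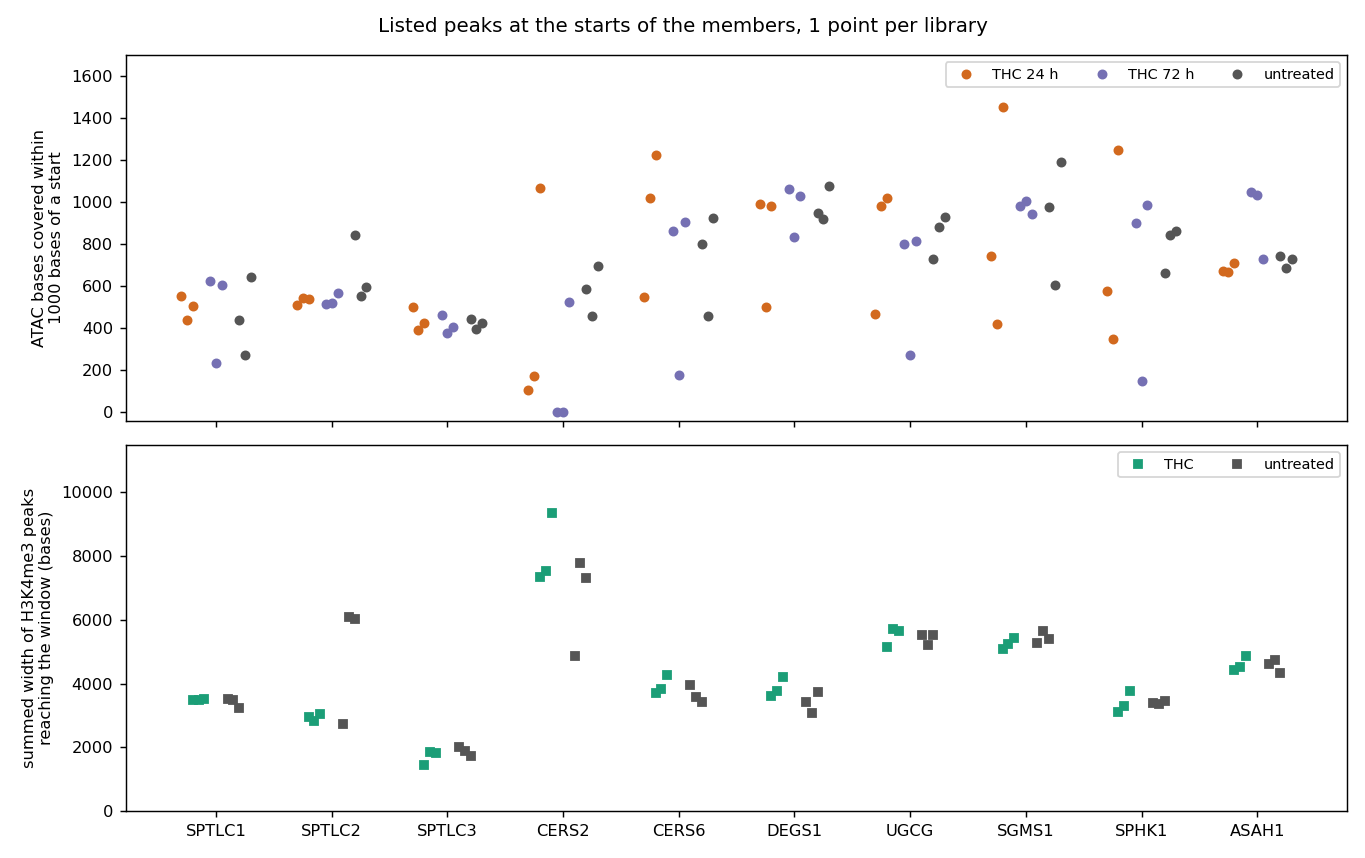
Bases covered by ATAC peaks within 1000 bases of a member's starts (upper panel, THC at 24 h, THC at 72 h and untreated) and summed width of the H3K4me3 peaks that reach those windows (lower panel, THC and untreated), with 1 point per library. Windows are longer for DEGS1 and SPHK1, which have several starts, and 2 of the 3 CERS2 libraries at 72 h lie at 0 in the upper panel.

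At UGCG the mark was not limited to the start. Within 10000 bases of the gene 6 H3K4me3 regions were listed, of which 5 were present in all 3 THC and all 3 untreated libraries. The region over the start spanned 5770 bases (chr9:111894860-111900629) and took in the whole promoter sequence printed above. The others lay 2710 bases upstream of the start and 4919, 11447 and 17892 bases downstream of it. The sixth, 31343 bases downstream of the start, was listed in none of the THC libraries and in 1 untreated library. This was not particular to UGCG. Regions away from the start were listed in all 3 THC and all 3 untreated libraries at SPTLC1, SPTLC2, SPTLC3, CERS2, CERS6, SGMS1 and SPHK1. At DEGS1 and ASAH1 there were none, and no share over all genes was taken.

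ATAC peaks were listed for the same 7 members in all libraries of THC at 24 h, THC at 72 h and untreated cells. Of all starts, 45.5% were listed in all libraries at 24 h and untreated, and 38.8% in all at 72 h and untreated. Of the other 3, SPTLC3 and ASAH1 were listed in every library, and CERS2 was listed in 1 of 3 libraries at 72 h, in 3 of 3 at 24 h and in 3 of 3 untreated. Its ATAC coverage was 106, 173 and 1066 bases at 24 h, 0, 0 and 526 bases at 72 h, and 584, 456 and 697 bases in untreated cells, so the groups overlapped (exact permutation p = 0.80 at 24 h and 0.20 at 72 h against untreated). CERS2 RNA was high in all 6 THC libraries. By the authors' fold enrichment, its best peak ranked between the percentiles 3.48 and 38.5 within the lists at 24 h, at 36.7 within the single list at 72 h and between 32.2 and 73.5 within the untreated lists. No member gained or lost an ATAC peak at 24 h or at 72 h, where 0.522% and 0.802% of all starts lost one and 0.0221% and 0.0184% gained one. Between 72 h and 24 h no member did either, where 0.0331% gained and 0.147% lost one.

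The ATAC coverage of SPTLC2, whose RNA rose, was 510, 544 and 539 bases at 24 h, and 845, 551 and 597 bases in untreated cells. These did not overlap (exact permutation p = 0.10, adjusted p = 1.0 over the members), as for 3.78% of all starts in that direction. The coverage of ASAH1 was 1047, 1032 and 729 bases at 72 h, and 670, 666 and 710 bases at 24 h, again without overlap (exact permutation p = 0.10, adjusted p = 1.0), as for 0.912% of all starts in that direction. Every other member overlapped in each comparison. At 72 h against untreated cells no member stood apart, where 0.849% of all starts were covered more without overlap and 5.01% less, and in the opposite directions the shares were 0.298% at 24 h and 1.06% between the times. At DEGS1 the window was covered over 992, 501 and 983 bases at 24 h and over 949, 918 and 1077 bases in untreated cells (exact permutation p = 0.60), although its RNA at 24 h was less than that of any untreated library. At UGCG it was covered over 469, 983 and 1019 bases at 24 h and over 730, 882 and 928 bases in untreated cells (exact permutation p = 1.0), which does not show that the groups are alike. By the authors' fold enrichment the best UGCG peak ranked between the percentiles 48.5 and 62.9 within the lists at 24 h, 32.8 and 61.3 at 72 h, and 63.9 and 88.0 within the untreated lists. Ranks from lists of unequal length, here and for CERS2, cannot be read as a change or as the lack of one. The ATAC lists differed in length from 38495 to 150884 peaks per library, and the part of list length in these values was not tested apart from the lists made equal in length, below.

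Over the 10 genes and 10000 bases on either side, 108 ATAC regions were listed in at least 1 library. A single region, 78752 bases downstream of the CERS6 start and inside the gene (chr2:168535024-168535244), was listed in none of the 24 h, none of the 72 h and all 3 untreated libraries. Of 239554 ATAC regions over the genome, 0.692% were lost in that way at 24 h, 1.27% at 72 h and 0.364% at both times. No region of the other 9 members was gained or lost by that rule, and CERS6 RNA overlapped between the groups.

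Genes whose RNA followed a member most closely over the 9 libraries were named for the 3 members with the largest log2 change of TPM + 1 against untreated cells at either time, a scale that understates SPTLC3, by Pearson's r of log2(TPM + 1) among the 13753 tested genes. For DEGS1 these were TSPAN6 (r = 0.999), SLC5A3 (0.998) and FASTKD5 (0.998). For UGCG they included RIOK3 (0.998) and ZSWIM6 (0.997), and for CERS2 they were RBCK1 (0.999), SCNM1 (0.998) and GTPBP2 (0.998). The 9 libraries form 3 groups, so a gene with the same order of group means reaches a high r, and these values describe likeness of pattern only.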

How the data were processed

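The authors deposited gene TPM for 9 RNA libraries and peak lists for 9 ATAC and 6 H3K4me3 libraries, with the fold enrichment (a ratio), -log10 p and -log10 q of each peak, per the files' layout. The score column deposited by the authors was not used. Per the submitters' processing notes, MACS2 2.2.7.1, MACS3, Picard, Bowtie2, Salmon, SAMtools, FastQC and Trim Galore were used on GRCh38, with no roles given. ATAC read shifting, strand use and filters are not given in the sources at hand. The IgG sample was not analysed here.

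RNA was tested with limma 3.58.1 (R 4.3.3) on log2(TPM + 1) over 3 groups of 3, eBayes with trend, two-sided, over 13753 genes averaging 1 TPM or more, with Benjamini-Hochberg adjustment and a threshold of 0.05. The code of the fit was run on simulated data in which few genes changed and no shift between libraries was put in. That run does not bear on the calls made here. The labels do not say whether replicate numbers pair the libraries, and the main fit used no pairing. Peaks were processed with Python 3.11.15, pandas 2.3.3 and numpy 2.4.6 on 22 autosomes and X, merged over libraries into regions, and gained or lost where listed in all libraries of 1 group and none of the other. Starts came from the RefSeq promoter table of GRCh38.p14, or for SPTLC3, CERS2 and ASAH1 from the RefSeq gene end under H3K4me3. Fold enrichments were ranked within a list only.

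The members and lists were chosen with earlier results of these data known. All members are named. A gene among those closest to UGCG in pattern and a gene of the wider list are counted but not reported here. Of the other listed genes, the text names the 2 with the largest called change in each role and THC time. Alternatives were other pseudocounts (0, 0.1 and 5) and filters, centring, rescaling, no trend, fits of 2 groups, a replicate block, each library left out, stricter or equally long peak lists, and other windows.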

Additional observations from a re-analysis of the deposited data

Results flagged for a closer look

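For 5 members the effects of THC at 72 h and at 24 h, each against the same untreated libraries, differed by limma's test of the difference itself. That is 5 of 9 tested members, where 54.9% of all tested genes were higher and 17.8% lower at 72 h than at 24 h, so the count is not read as particular to them. The log2 effect at 72 h minus that at 24 h was 0.87 for DEGS1 (limma adjusted p = 1.42e-06), 0.75 for SPTLC3 (0.000669), 0.26 for SGMS1 (0.0137), 0.21 for SPTLC1 (0.0195) and -0.22 for UGCG (0.00223). After centring, DEGS1 (0.56), SPTLC3 (0.45) and UGCG (-0.52) still passed the test in the same direction, and SGMS1 (-0.04) and SPTLC1 (-0.10) turned.

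The same difference passed the test for 24 of the 31 other named genes of the wider list, and for 26 higher and 8 lower of all 46 others tested, beside the same shares of all tested genes. In synthesis and its regulation it was 1.05 for ORMDL1, 1.00 for CERS1, 0.79 for SPTSSA, 0.46 for ORMDL3, -0.50 for CERS5 and -0.57 for FA2H. In transfer and sphingomyelin metabolism it was 0.58 for CPTP, 0.50 for CERT1, 0.36 for GLTP, 0.56 for SMPD1, 0.39 for SMPD4 and -0.35 for SGMS2. Among glycosphingolipid genes it was 1.25 for B4GALT6, 1.11 for NEU1, 0.25 for B4GALNT1 and -0.87 for B4GALT5. On the path out of ceramide it was 0.87 for SGPP2, 0.73 for ACER2, 0.69 for CERK, 0.55 for SPHK2, 0.52 for PLPP1, 0.36 for SGPL1, 0.17 for ACER3 and -1.94 for SPNS2. After centring 17 of the 24 kept their direction and passed the test, and B4GALNT1 (-0.06) and ACER3 (-0.13) turned. Centring ended the call of CERT1 (0.20, limma adjusted p = 0.0770), GLTP (0.06, 0.298), SMPD4 (0.08, 0.135), SPHK2 (0.25, 0.120) and SGPL1 (0.06, 0.357).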

How the results depend on the processing

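The calls of SPTLC2, CERS2, DEGS1 and UGCG against untreated cells at both times, and of SPTLC3 at 24 h, held under every alternative that tested them, and SPTLC3 fell under the filter of 5 TPM. For the members, centring gave 5 higher and 2 lower at 24 h, 3 higher and 2 lower at 72 h, and 2 higher and 5 lower between 72 h and 24 h, where TPM as deposited gave 3 and 3, 5 and 1, and 4 and 1. Rescaling without mitochondrially encoded genes gave 3 higher at 72 h, and no filter gave 2 lower at 72 h, SPHK1 being added. With a library left out, 3 to 4 members were higher and 3 lower at 24 h, 3 to 4 higher and 1 lower at 72 h, and 2 to 4 higher and 1 lower between the times. Of the wider list, members included, centring gave 28 higher and 17 lower at 24 h, against 19 and 24, and 15 higher and 25 lower between the times, against 30 and 9. It also ended the call of SGPP2 at 24 h (-0.09, adjusted p = 0.119). The same-numbered libraries correlated by -0.20 to 0.25 in their deviations and other pairs by -0.23 to 0.22. The replicate block added CERS6 at 24 h (0.13, adjusted p = 0.0447), with 4 higher members, and SPHK2 at 72 h, and changed no other member's call.

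Directions also turned where no call stood in TPM as deposited. Centring made some of these calls in the new direction, at 24 h ORMDL1 (limma adjusted p = 0.0466) and SMPD1 (0.0275). Between the times it did so for ASAH1 (0.0449), CERS6 (0.00409), KDSR (0.00347), ORMDL2 (0.00656) and PSAP (0.000410). Centring gave, at 24 h, 0.10 for ASAH1, 0.16 for ORMDL1 and 0.22 for SMPD1, and at 72 h -0.063 for ASAH1, -0.068 for ACER2 and -0.037 for B4GALT6. Between the times it gave -0.13 for ACER3, -0.14 for ARSA, -0.17 for ASAH1, -0.055 for B4GALNT1, -0.26 for CERS6, -0.21 for KDSR, -0.28 for ORMDL2, -0.25 for PSAP, -0.043 for SGMS1 and -0.10 for SPTLC1, of which ACER3, B4GALNT1, SGMS1 and SPTLC1 were calls before centring. Rescaling without mitochondrially encoded genes gave -0.021 for ORMDL3 and -0.051 for SPTLC1 at 24 h, -0.047 for ACER2, -0.068 for ASAH1 and -0.022 for B4GALT6 at 72 h, and -0.0066 for ORMDL2 between the times. With a library left out, values near 0 changed sign, at 24 h for SPTLC1 (-0.051 to 0.061), CERS1 (-0.0062 to 0.094) and SMPD1 (-0.049 to 0.082), and at 72 h for B4GALT6 (-0.052 to 0.21), ASAH1 (-0.020 to 0.088) and ACER2 (-0.036 to 0.080). Between the times they did so for SPTLC2 (-0.17 to 0.025), ORMDL2 (-0.021 to 0.078), CERS2 (-0.030 to 0.0077) and S1PR2 (-0.096 to 0.0063). The cause was not tested.

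ATAC counts moved with the peak lists and with single libraries. With -log10 q of at least 5, members listed in all libraries were 4 for 24 h and untreated, 2 for 72 h and untreated and 2 for both THC times, 1 was lost and 1 was covered less without overlap at 72 h, and between the times no coverage was higher, ASAH1 turning to -382 bases and CERS2 to 87.3 bases. Equally long lists gave 3 members covered less at 24 h, and the window of 2500 bases gave 1 covered more at 72 h. With a library left out, members covered more without overlap were 0 to 2 at 24 h, 0 to 1 at 72 h and 1 to 3 between the times, members covered less were 1 to 4, 0 to 2 and 0 to 2, and for H3K4me3 0 to 1 were covered less. At 24 h the 2 covered more came without 24 h replicate 1 and the 4 covered less without 24 h replicate 3. CERS2 counted as lost at 72 h without 72 h replicate 3, and its coverage between the times ran from -448 to 35.8 bases. TPM keeps no depth, so its limit on low genes such as SPHK1 is unknown.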
